A study of Homo sapiens with 12 samples.

Results

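Laminins are the main glycoproteins of the basement membrane, the sheet of matrix on which epithelial cells rest. Each laminin is a trimer of an α, a β and a γ chain, and each chain has its own gene. The α chain carries the globular domains that bind integrins and dystroglycan on the cell surface, whereas the β and γ chains complete the coiled coil and help to build the laminin network. In breast, laminins of the basement membrane surround the ducts, and the products of LAMA3 and LAMB3 are chains of a laminin that anchors epithelial cells through hemidesmosomes.

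The expression of 9 laminin chain genes was described here in breast cancer cells cultured in synthetic matrices: the α chain genes LAMA1, LAMA2, LAMA3, LAMA4 and LAMA5, the β chain genes LAMB1, LAMB2 and LAMB3, and the γ chain gene LAMC1. They were chosen by name from the 23368 gene symbols of the deposited count table. MDA-MB-231, an oestrogen receptor negative basal-like line, and T47D, an oestrogen receptor positive luminal line, were encapsulated as single cells at 5000 cells per µL in poly(ethylene glycol) hydrogels for 3 days. The gels carried 1 of 2 adhesive peptides, GFOGER, which mimics collagen, or IKVAV, which mimics laminin, and no group without a peptide or on plastic was part of these libraries. All cells were grown in medium with serum and released from the gels with collagenase at 250 U per mL, and each RNA sample pooled 3 gels. Counts were analysed for 3 MDA-MB-231 GFOGER, 2 MDA-MB-231 IKVAV, 3 T47D GFOGER and 3 T47D IKVAV libraries. The third MDA-MB-231 IKVAV sample, which the submitters left out as an outlier, was not analysed here.

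In hg19, the build of the table, the genes lie on 6 chromosomes. LAMA1 spans chr18:6941743-7117813 and LAMA3 chr18:21269562-21535029, LAMA2 spans chr6:129204286-129837710 and LAMA4 chr6:112429134-112575828, and LAMA5 spans chr20:60884121-60942368. LAMB1 spans chr7:107564246-107643804, LAMB2 chr3:49158547-49170599 and LAMB3 chr1:209788218-209825820. LAMC1 spans chr1:182992595-183114727. Of the 9 spans, that of LAMA5 holds the microRNA gene MIR4758, with 0 counts, and that of LAMB3 holds MIR4260, with at most 1 count, and no other gene of the table overlaps them.

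The libraries held 14338238 to 18452145 counts on genes, and the 9 laminin genes took 0.220 to 0.248% of them in MDA-MB-231 and 0.113 to 0.139% in T47D. The labelled lines differed in their markers. The summed level of 9 luminal and epithelial markers was 526 to 641 cpm (counts scaled to library size) in MDA-MB-231 and 7015 to 8153 cpm in T47D, whereas that of 7 mesenchymal and basal-like markers was 7008 to 10934 cpm in MDA-MB-231 and 223 to 253 cpm in T47D. The myoepithelial keratins KRT5 and KRT14 had at most 3 counts in every library. The summed level of 4 myoepithelial markers was 4.23 to 11.9 cpm. That of 3 endothelial markers was 8.35 to 14.8 cpm in MDA-MB-231 and at most 0.183 cpm in T47D. For 3 leukocyte markers it was 2.11 to 4.34 cpm in MDA-MB-231 and at most 0.203 cpm in T47D. Most of these sums in MDA-MB-231 came from PECAM1 (means of 8.92 cpm with GFOGER and 14.4 with IKVAV) and LYZ (1.94 and 4.12). All cpm values were scaled with trimmed mean of M values (TMM) factors, and levels of different genes were compared only as cpm per kilobase of the gene length in the table (cpm per kb).

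The IKVAV peptide takes its letters from the laminin α1 chain, the product of LAMA1. Among the longest annotated coding sequences of the 9 genes, the only match to IKVAV was in LAMA1, at residues 2116 to 2120 of 3075. The match lay in exon 45 of 63 coding exons, on the minus strand of GRCh37. The reference coding sequence at chr18:6976035-6976079 is shown because it links the peptide in the gel to a gene measured in the same cells, and the capitals mark the 15 bases that encode IKVAV.
LAMA1: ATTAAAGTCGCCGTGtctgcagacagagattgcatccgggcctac

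Start sites differ among the laminin genes, and promoter windows of 250 bases before each RefSeq start (GRCh38.p14) were found for 8 of the 9 genes. The windows of LAMA3 and LAMB3 are shown because these genes encode partner chains of a trimer and moved in opposite directions with the peptide in MDA-MB-231. The capitals mark TGANTCA, the core letters of an AP-1 site, searched on both strands after the expression values had been seen. It occurred at 125 and 69 bases before the LAMA3 start and at 67 bases before the third of 3 LAMB3 starts, and in none of the other windows of the 8 genes. Of 35116 promoter windows of the same length, 6.57% held it. Matched exactly to GRCh37, both windows lay within the span that the table gives for the gene, so that each precedes an internal start, and gene counts do not tell the starts apart. In GRCh37 the LAMA3 window is at chr18:21452734-21452983 and the LAMB3 window at chr1:209824720-209824969. In GRCh38.p14 the LAMA3 window is at chr18:23872770-23873019 on the plus strand and the LAMB3 window at chr1:209651375-209651624 on the minus strand.
LAMA3: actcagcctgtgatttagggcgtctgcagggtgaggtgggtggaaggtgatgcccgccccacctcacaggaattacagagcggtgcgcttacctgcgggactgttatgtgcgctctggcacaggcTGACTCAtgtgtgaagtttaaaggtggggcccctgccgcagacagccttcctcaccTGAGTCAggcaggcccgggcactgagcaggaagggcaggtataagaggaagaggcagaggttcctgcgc
LAMB3: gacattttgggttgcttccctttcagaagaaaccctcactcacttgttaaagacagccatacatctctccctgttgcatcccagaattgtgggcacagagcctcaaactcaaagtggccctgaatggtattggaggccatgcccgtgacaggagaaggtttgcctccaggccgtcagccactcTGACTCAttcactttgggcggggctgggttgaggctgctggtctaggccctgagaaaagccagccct
A second motif, the SP1 core GGGCGG on either strand, was found 5 times in the LAMA5 window, 4 times in that of LAMB1 and 3 times in that of LAMC1, whereas the windows of LAMA2 and LAMA4 held none, and 42.6% of all windows held at least 1 match. These matches describe letters and not binding.

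The α chain genes fell into abundant and scarce members in both lines. LAMA5, the α chain of most mature epithelial basement membranes, was the most abundant, at 31.8 ± 5.04 cpm per kb (SD, n = 3) in MDA-MB-231 GFOGER, 61.2 ± 0.667 (SD, n = 2) in MDA-MB-231 IKVAV, 42.3 ± 5.21 (SD, n = 3) in T47D GFOGER and 44.7 ± 6.80 (SD, n = 3) in T47D IKVAV. LAMA3, the α chain of hemidesmosomal laminin, followed with 9.44 ± 0.0929, 18.9 ± 0.695, 4.87 ± 0.563 and 5.29 ± 0.343 cpm per kb in the same order. These values use a single length per gene, 10701 bases for LAMA3. Its level and share would be understated if a shorter transcript were made, which gene counts do not show. LAMA1, LAMA2 and LAMA4 stayed below 1 cpm per kb in every library. LAMA2 encodes the α chain of muscle laminin and LAMA4 that of vascular and mesenchymal laminins.

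The most abundant β chain gene depended on line and peptide. LAMB3, the β chain of hemidesmosomal laminin, led all 9 genes in MDA-MB-231 GFOGER at 170 ± 18.2 cpm per kb (SD, n = 3) and stood at 80.8 ± 1.09 (SD, n = 2) in MDA-MB-231 IKVAV, but at only 1.46 ± 0.202 and 1.63 ± 0.164 (SD, n = 3 each) in T47D GFOGER and T47D IKVAV. LAMB2 led in the other 3 groups, at 87.2 ± 1.56 cpm per kb in MDA-MB-231 IKVAV (SD, n = 2), 77.7 ± 5.28 in T47D GFOGER and 78.5 ± 3.76 in T47D IKVAV (SD, n = 3 each), and reached 58.4 ± 3.44 in MDA-MB-231 GFOGER (SD, n = 3). LAMB1, like LAMB2 a partner of many α chains, lay at 28.8 ± 0.258 and 28.7 ± 0.271 cpm per kb in MDA-MB-231 GFOGER and IKVAV, and at 14.4 ± 1.10 and 16.5 ± 2.30 in T47D GFOGER and IKVAV. LAMC1, the γ chain shared by most laminins, was second in MDA-MB-231 GFOGER at 79.4 ± 0.479 cpm per kb and followed LAMB2 and LAMB3 in MDA-MB-231 IKVAV at 69.1 ± 6.82, against 13.3 ± 0.585 and 12.7 ± 1.74 in T47D.

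Neighbours in these orders were mostly separated. The libraries of LAMA5 and LAMB1 overlapped in MDA-MB-231 GFOGER, those of LAMA4, LAMA1 and LAMA2 overlapped from neighbour to neighbour in MDA-MB-231 IKVAV, and those of LAMB1 and LAMC1 and of LAMA2 and LAMA1 overlapped in both T47D groups. All other neighbours had separate ranges of cpm per kb.

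**Figure D1:**
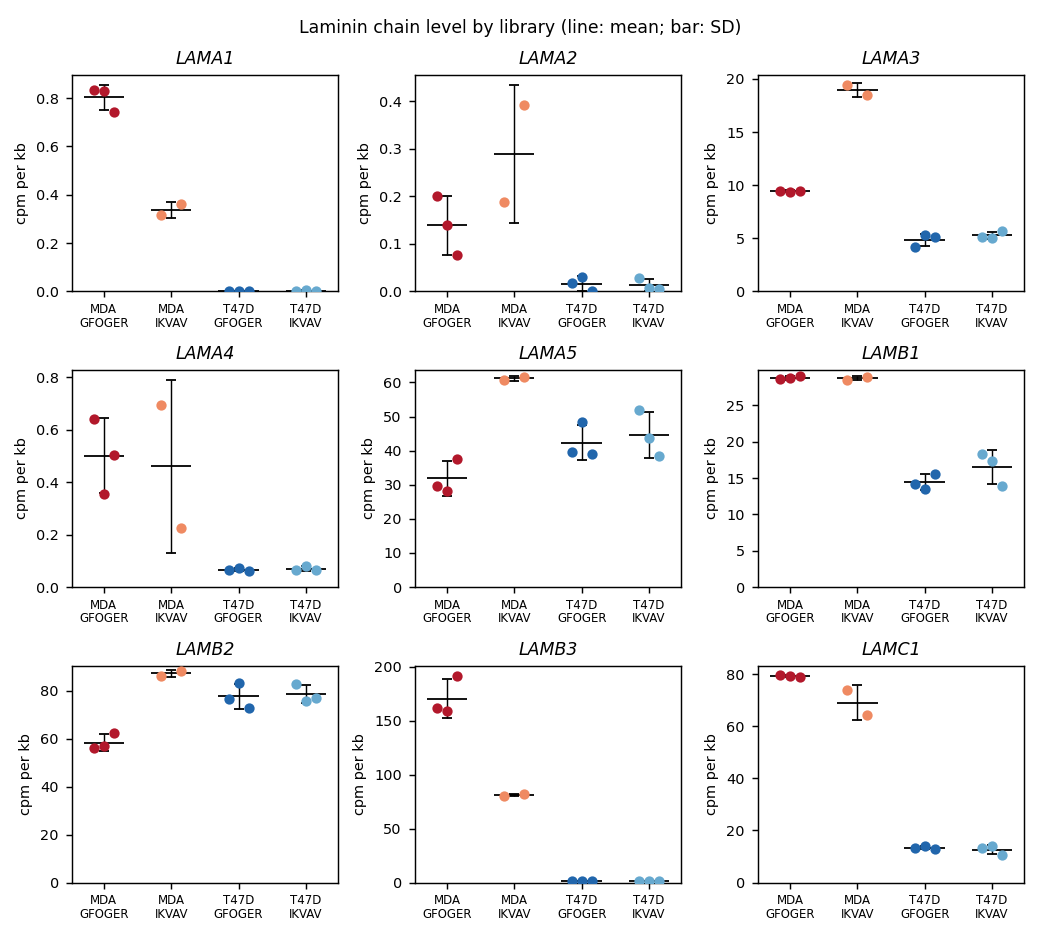
Level of each of the 9 laminin chain genes (cpm per kb, linear axis from 0, scaled for each gene) in the 4 groups, with MDA-MB-231 shortened to MDA. Points are libraries, horizontal lines are means and bars are SD; LAMB3 falls from 159 to 191 in MDA-MB-231 GFOGER to 80.1 to 81.6 in MDA-MB-231 IKVAV, and LAMA3 and LAMA5 stand higher with IKVAV.

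The make-up of the α and β chain classes was then expressed as the share of each gene in the summed cpm per kb of its class, with the β chain gene LAMB4 counted in. LAMB3 made up 66.1 ± 1.43% of β chain RNA in MDA-MB-231 GFOGER (SD, n = 3) and 41.1 ± 0.0625% in MDA-MB-231 IKVAV (SD, n = 2), whereas it made up 1.56 ± 0.219% and 1.68 ± 0.0919% in T47D GFOGER and IKVAV (SD, n = 3 each). LAMB2 took 22.7 ± 0.628% and 44.3 ± 0.129% in MDA-MB-231, and 83.0 ± 1.84% and 81.3 ± 1.82% in T47D. Among α chains, the shares of LAMA5 and LAMA3 lay close together for the 2 peptides. LAMA5 took 74.3 ± 2.91% and 75.4 ± 0.988% in MDA-MB-231 and 89.5 ± 1.01% and 89.1 ± 1.95% in T47D, and LAMA3 took 22.3 ± 2.35% and 23.3 ± 0.803% in MDA-MB-231. The small share of LAMA1 in MDA-MB-231 was 1.91 ± 0.324% with GFOGER and 0.417 ± 0.0416% with IKVAV, with no overlap, and that of LAMA4 was 1.17 ± 0.348% and 0.565 ± 0.406%.

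The summed α chain level in MDA-MB-231 was 42.7 ± 5.02 cpm per kb with GFOGER and 81.3 ± 0.181 with IKVAV, whereas the β sum was 258 ± 21.8 and 197 ± 2.95. In T47D the sums for GFOGER and IKVAV were 47.3 ± 5.58 and 50.1 ± 6.58 for α and 93.6 ± 4.27 and 96.6 ± 5.52 for β. In MDA-MB-231, α chain RNA was thus higher with IKVAV and β chain RNA higher with GFOGER, with no overlap between libraries, and in T47D the ranges of both sums overlapped between peptides. These sums were not tested.

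**Figure D2:**
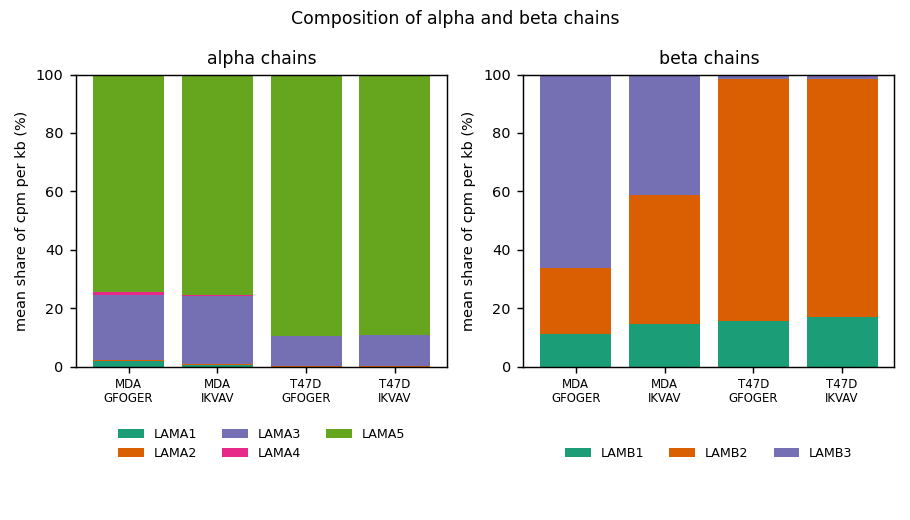
Share of each gene in the summed cpm per kb of its chain class (percent, mean of the libraries of a group), for α and β chains in the 4 groups. LAMB3 fills 66.1% of the β bar in MDA-MB-231 GFOGER, 41.1% in MDA-MB-231 IKVAV and under 2% in T47D; LAMB4 is too rare to be drawn.

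To ask how the laminin genes responded to the peptide, GFOGER was compared with IKVAV within each line by the quasi-likelihood test of edgeR, and p-values were adjusted over all genes tested by the Benjamini-Hochberg method. A gene was called when its adjusted p was below 0.05 and its change exceeded 2-fold. In MDA-MB-231, 4 of the 9 laminin genes were called, beside 9.57% of 14092 genes tested. LAMA1 and LAMB3 were higher with GFOGER, beside 3.12% of all genes, and LAMA2 and LAMA3 were lower, beside 6.46%. Without the fold threshold 6 of 9 passed, beside 42.9% of all genes, with LAMA5 and LAMB2 added, both lower with GFOGER. The 9 genes had a median log2 fold change of -0.0050 and a median absolute log2 fold change of 0.952, against 0.337 over all genes tested. In RNA from whole gels, fewer cells that express a gene and less of its RNA per cell cannot be told apart.

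LAMB3 rose with GFOGER. Its level was 725, 713 and 860 cpm in the 3 GFOGER libraries and 360 and 367 cpm in the IKVAV libraries of MDA-MB-231. Both IKVAV libraries lay far below the lowest GFOGER library, and the fold was 2.1, with a log2 fold change of 1.07 (SE 0.0922, adjusted p 1.58e-07 by edgeR). Without GFOGER replicate 3, the highest library, the log2 fold change was 0.98 and just short of 2-fold.

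LAMA1, the gene that encodes the IKVAV letters, also rose with GFOGER, from a low level. It had 8.06, 8.03 and 7.18 cpm with GFOGER and 3.05 and 3.50 cpm with IKVAV, from 126 to 141 and 47 to 58 counts. The groups did not overlap, and the log2 fold change was 1.23 (SE 0.212, adjusted p 0.000222 by edgeR).

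LAMA3 moved the other way from its trimer partner LAMB3. The GFOGER libraries had 102, 99.8 and 102 cpm and the IKVAV libraries 208 and 197 cpm, a log2 fold change of -1.01 (SE 0.0888, adjusted p 1.89e-07 by edgeR) with no overlap. Its change lay so near 2-fold that without IKVAV replicate 1 it was -0.97, inside the threshold. The call was lost under 4 of 14 alternatives.

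LAMA5 had 340, 322 and 429 cpm with GFOGER and 694 and 705 cpm with IKVAV. It fell with GFOGER by 0.95 on the log2 scale (SE 0.101, adjusted p 1.70e-06 by edgeR), just inside the 2-fold threshold, and without GFOGER replicate 3 the change of -1.08 was past it. LAMB2 had 325, 330 and 362 cpm against 500.1 and 513 cpm, a log2 fold change of -0.59 (SE 0.0826, adjusted p 3.21e-05 by edgeR). The GFOGER libraries of both genes all lay below the IKVAV libraries.

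LAMB1 and LAMC1 did not pass the test. LAMB1 had 167, 168 and 169.9 cpm with GFOGER and 167 and 169 cpm with IKVAV, and the 95% interval of its log2 fold change ran from -0.19 to 0.18. LAMC1 had 630.1, 625 and 623 cpm against 583 and 507 cpm. Its libraries did not overlap, yet the interval ran from 0.01 to 0.37 and the adjusted p was 0.0757 by edgeR. Without GFOGER replicate 3 the log2 fold change of 0.20 passed at any fold, with an adjusted p of 3.34e-05 by edgeR, so that its outcome depended on which libraries were used.

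The remaining α chain genes were scarce and variable. LAMA2 had 1.94, 1.36 and 0.741 cpm with GFOGER and 1.81 and 3.80 cpm with IKVAV, from 13 to 63 counts, and its groups overlapped. It was called at a log2 fold change of -1.07 (SE 0.409, adjusted p 0.0439 by edgeR), but the call was lost without GFOGER replicate 3, at -0.77, and without IKVAV replicate 2, at -0.43. DESeq2, the fit of all 4 conditions, the replicate block and the test against 2-fold did not call it either, so that 6 of 14 alternatives lost the call. LAMA4 had 4.80, 2.66 and 3.76 cpm against 5.19 and 1.69 cpm, with an interval from -0.64 to 0.90. Its log2 fold change went from 0.13 to -0.47 without IKVAV replicate 2 and to 1.14 without IKVAV replicate 1, each with a single IKVAV library left.

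LAMB4 and LAMC3, laminin chain genes outside the 9, were close to absent from the counts: LAMB4 had at most 4 counts and LAMC3 at most 3 counts in any library.

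In T47D, none of the 6 laminin genes tested was called or passed at any fold by edgeR, beside 0.0220% and 0.0440% of 13642 genes, and 0 of the 6 had an unadjusted p below 0.05, which 1531 genes had. DESeq2 called 0 as well. The intervals of the log2 fold change, GFOGER relative to IKVAV, bounded what could have been missed. They ran from -0.34 to 0.10 for LAMA3, from -0.32 to 0.16 for LAMA5, from -0.42 to 0.03 for LAMB1, from -0.18 to 0.15 for LAMB2, from -0.52 to 0.21 for LAMB3 and from -0.14 to 0.29 for LAMC1. A 2-fold change lay outside all 6 intervals.

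LAMB1 came nearest to the threshold in T47D. It had 83.1, 78.5 and 91.2 cpm with GFOGER and 107, 101 and 81.3 cpm with IKVAV, so that IKVAV replicate 3 lay among the GFOGER libraries. Without that library the log2 fold change went from -0.19 to -0.31 and the adjusted p from 0.515 to 0.0281 by edgeR, the lowest over the alternatives. LAMB3 had 7.54, 6.37 and 5.75 cpm against 8.0, 7.38 and 6.53 cpm, with overlapping groups. LAMA1, with 0 or 1 counts in each T47D library, LAMA2, with 0 to 5, and LAMA4, with 7 to 10, were too low to be tested.

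**Figure D3:**
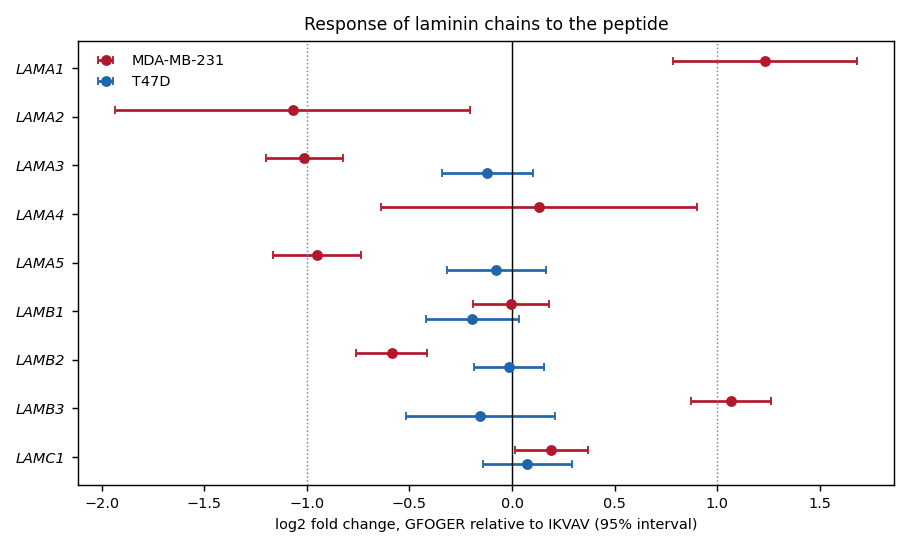
Log2 fold change of GFOGER relative to IKVAV for the laminin chain genes in MDA-MB-231 and T47D. Points are edgeR estimates, bars are 95% intervals and dotted lines mark 2-fold; in MDA-MB-231 LAMA1 and LAMB3 lie to the right and LAMA3, LAMA5 and LAMB2 to the left of 0, and the T47D points lie between -0.19 and 0.07, with LAMA1, LAMA2 and LAMA4 not tested there.

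Whether the response differed between the lines was tested as the interaction of line and peptide over all 11 libraries. LAMB3 alone was called among the 9 genes, beside 6.42% of 15320 genes, with a difference in log2 fold change of 1.23 (SE 0.167, adjusted p 4.08e-05 by edgeR). LAMA3, LAMA5 and LAMB2 passed as well without the fold threshold, so that 4 of 9 passed beside 21.0% of all genes. Their differences were -0.88 for LAMA3, -0.87 for LAMA5 and -0.56 for LAMB2. LAMA5 was called too without MDA-MB-231 GFOGER replicate 3 or without T47D IKVAV replicate 1, which made 2 called. For LAMB1 and LAMC1 a difference between the lines was not shown. LAMA1, LAMA2 and LAMA4, with 0 to 10 counts in each T47D library, did not pass either, but their intervals were wide. They ran from -0.86 to 7.17 for LAMA1, from -3.77 to 1.03 for LAMA2 and from -1.16 to 1.61 for LAMA4.

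Between the lines, averaged over both peptides, 6 of the 9 laminin genes were called, beside 46.3% of 15320 genes. All 6, LAMA1, LAMA2, LAMA3, LAMA4, LAMB3 and LAMC1, were higher in MDA-MB-231, beside 23.7% of all genes higher and 22.6% lower there. At any fold 8 of 9 passed, beside 84.5% of all genes. LAMA1, LAMA2 and LAMA4 passed the filter on low counts only through MDA-MB-231 libraries, so that their calls were favoured by the filter. With at least 10 counts required in every library, 6 members were tested and LAMA3, LAMB3 and LAMC1 were called, 3 of 6. The share of all genes called under that filter is not given here, and the 46.3% above covers a wider set of genes. Because the peptide moved several members in MDA-MB-231, the lines were also compared within each peptide, where 5 of 9 were called with GFOGER beside 46.9% of all genes and 6 of 9 with IKVAV beside 45.9%. Without the 3 members that the filter favoured, the calls were LAMB3 and LAMC1 with GFOGER and LAMA3, LAMB3 and LAMC1 with IKVAV.

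LAMB3 differed most among the members with counts in all libraries. It was 117-fold higher in MDA-MB-231 than in T47D with GFOGER, a log2 difference of 6.87 (SE 0.121), and 49.8-fold higher with IKVAV, a log2 difference of 5.64 (SE 0.121). T47D libraries had 5.75 to 8.0 cpm and the lowest MDA-MB-231 library 360 cpm. LAMC1 was 5.95-fold higher with GFOGER and 5.46-fold higher with IKVAV, with 84.5 to 111 cpm in T47D and 507 to 630.1 cpm in MDA-MB-231.

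LAMA3 was higher in MDA-MB-231 by 0.95 on the log2 scale with GFOGER and by 1.84 with IKVAV, against 45.2 to 60.8 cpm in T47D, and passed 2-fold with IKVAV alone of the peptides. LAMB1 was higher by 1.00 and 0.80 on the log2 scale, which the fold threshold did not pass with either peptide. LAMA1 had 397 counts in the 3 MDA-MB-231 GFOGER libraries and 0 in the 3 T47D GFOGER libraries, so that it was at least 123-fold higher against a floor of 3 counts over the group. With IKVAV it had 105 counts against 1, a ratio of 151 with a 95% counting interval from 26.5 to 6022. LAMA4 was higher by 2.92 and 2.69 on the log2 scale, from 7 to 10 counts in each T47D library, and LAMA2 by 3.04 and 4.41.

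LAMA5 and LAMB2 were the members whose order between the lines depended on the peptide. With GFOGER, LAMA5 was lower in MDA-MB-231 than in T47D, with 322 to 429 cpm against 445 to 552 cpm and a log2 difference of -0.41 (SE 0.114, adjusted p 0.00282 by edgeR). With IKVAV it was higher, with 694 to 705 cpm against 439 to 593 cpm and a log2 difference of 0.45 (SE 0.126, adjusted p 0.00288 by edgeR). The libraries did not overlap in either comparison. LAMB2 was lower in MDA-MB-231 by 0.41 on the log2 scale with GFOGER (adjusted p 5.17e-05 by edgeR), and with IKVAV the difference of 0.15 did not pass (adjusted p 0.107 by edgeR).

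**Figure D4:**
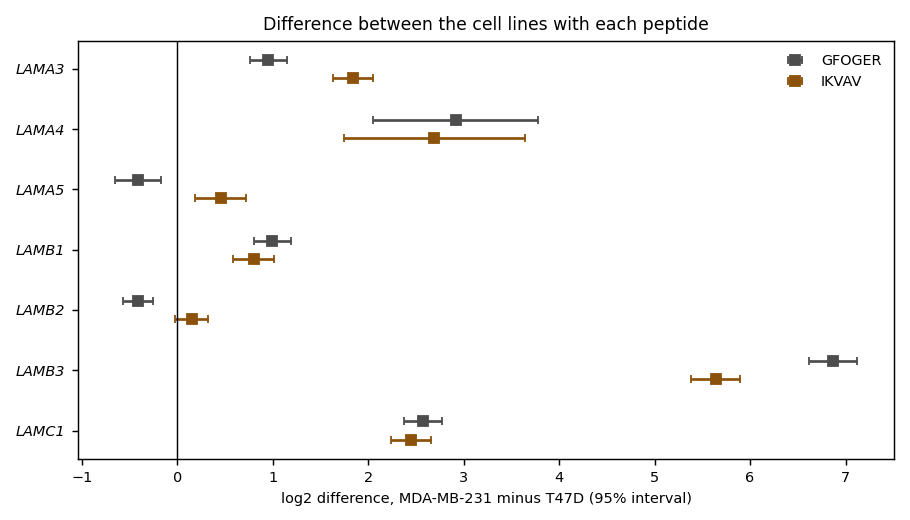
Log2 difference of MDA-MB-231 minus T47D with GFOGER and with IKVAV, as edgeR estimates with 95% intervals, for the members other than LAMA1 and LAMA2. The points of LAMA4, LAMB3 and LAMC1 lie to the right of 2 with both peptides, and LAMA5 lies at -0.41 with GFOGER and 0.45 with IKVAV. LAMA4, with 7 to 10 counts in each T47D library, passed the filter on low counts only through MDA-MB-231.

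Genes that work with laminins were read from the same fits. Of 14 basement membrane partners 13 were tested in MDA-MB-231 and 4 were called, 3 higher and 1 lower with GFOGER, beside 9.57% of all genes, with a list median of -0.0059. The matrix glycoprotein genes FBLN1 and SPARC were higher by 1.25 and 1.96 on the log2 scale and the basement membrane collagen COL15A1 by 1.21, each below 10 cpm, and COL18A1, another basement membrane collagen, had a log2 fold change of -1.45, from 274 ± 18.0 cpm with IKVAV (SD, n = 2) to 101 ± 22.9 cpm with GFOGER (SD, n = 3). SPARC, with 3 and 7 counts in the IKVAV libraries, passed the filter on low counts only through the GFOGER libraries, so that its call was favoured. At any fold 7 of the 13 passed, beside 42.9% of all genes. Of the collagen IV chains among them, COL4A1 and COL4A2 were higher with GFOGER by 0.58 and 0.60 on the log2 scale and COL4A5 was lower, at -0.57.

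Of 9 laminin receptor genes 2 were called in MDA-MB-231 and 6 passed at any fold, with a list median of -0.37, beside 9.57% and 42.9% of all genes. ITGA6, the α6 subunit of laminin-binding integrins, rose from 414 ± 10.4 cpm with IKVAV to 945 ± 63.5 cpm with GFOGER, a log2 fold change of 1.19, whereas its hemidesmosomal partner ITGB4 changed by -0.46. BCAM, a receptor for the laminin α5 chain, was lower with GFOGER, at -1.03, in the same direction as LAMA5. Of 6 hemidesmosome and anchoring genes 4 were tested and 1 was called: COL17A1, a hemidesmosome collagen, rose by 1.44. At any fold 2 passed, as COL7A1 went the other way, at -0.55, and the list median was 0.07. Of 7 enzymes that cut laminin chains 4 were tested and 2 were called, the protease gene PLAU at 1.72 and MMP2 at -1.82, the latter from at most 16 counts in a library. Of 5 netrins, which share the laminin short-arm domains, 3 were tested and NTN1 was called at -1.48, from 3 to 16 counts. MMP2, with 2 to 5 counts with GFOGER, and NTN1, with 3 to 8, passed the filter on low counts only through the IKVAV libraries. Their calls were thus favoured by the filter. These short lists are read against the same 9.57% of all genes. In T47D 0 genes of these lists were called, where 0.0220% of all genes were.

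The genes whose log2 cpm followed the most abundant members over the 11 libraries were listed by Pearson's r as a description, because the libraries fall into a cluster for each line. LAMB3 was followed by AXL, FLNC and PPP1R15A (r = 0.999 each) and LAMC1 by C15orf48, SDR42E1 and F2R (r = 0.999, 0.999 and 0.998), and both members differ strongly between the lines. LAMA5 was followed by EPHB4 and ZNF133 (r = 0.985 and 0.971) and LAMB2 by RHBDD2, LTBP3 and CNN2 (r = 0.986, 0.981 and 0.979).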

How the data were processed

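Polyadenylated RNA of 12 samples was sequenced as stranded libraries. Per the labels, the authors' processing used FastQC, Trim Galore 0.4.4, TopHat2 2.1.0, bedtools 2.17, SAMtools 1.4, HTSeq 0.6.1p1 and edgeR 3.16.5 with hg19, and the annotation and strand option are not given in the sources used here. The deposited table holds raw read counts per gene for 11 libraries, gene positions and lengths, and RPKM values computed by the authors. The RPKM values imply library totals in 2 sets, 5191201 to 5774966 in 5 libraries and 19898878 to 22840524 in 6, unlike the counts, and were not used for levels. Of 24656 entries, 1288 repeats of a symbol were dropped and the entry with most counts was kept. No mitochondrial gene is listed. LAMB2P1, a pseudogene related to LAMB2, had at most 15 counts.

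Counts were tested with edgeR 4.0.16 (R 4.3.3): filterByExpr, TMM factors, quasi-likelihood test, Benjamini-Hochberg adjustment over all genes, with DESeq2 1.42.0 as an alternative. The code was tested on simulated data. Levels are TMM-scaled cpm. A count of 0 allows up to 3 counts, at most 0.209 cpm, and intervals on counts cover counting error only. Replicate pairs differed by 2.50 to 18.6 times sampling noise, so none was a duplicate. The highest values were those of the pairs with MDA-MB-231 GFOGER replicate 3 (16.5 and 18.6) and with T47D IKVAV replicate 3 (17.9 and 16.9). The labels do not say that replicates were separate cultures, so that p-values measure the spread between these samples, which may be technical. Same-numbered samples did not deviate together (r from -0.0602 to 0.0170), and numbers were not used as pairs.

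All 9 laminin genes are named, with the called genes of the lists and, for the 4 most abundant members, the 3 genes most alike, save items that are not reported here. The members and lists were chosen with earlier results of these data known. Alternatives varied normalization, filter, tool, threshold, block and libraries, and 1, a term for the set of RPKM totals, was added after seeing the data.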

Additional observations from a re-analysis of the deposited data

Results flagged for a closer look

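For 4 laminin genes the response to the peptide differed between the lines by edgeR's quasi-likelihood test of the interaction (Benjamini-Hochberg adjusted). The difference in the log2 fold change of GFOGER against IKVAV, MDA-MB-231 minus T47D, was 1.23 for LAMB3 (SE 0.167, adjusted p 4.08e-05), from 1.07 in MDA-MB-231 and -0.16 in T47D. It was -0.88 for LAMA3 (SE 0.135, adjusted p 0.000139), from -1.01 and -0.12, -0.87 for LAMA5 (SE 0.170, adjusted p 0.00136), from -0.95 and -0.08, and -0.56 for LAMB2 (SE 0.113, adjusted p 0.00156), from -0.59 and -0.02. No group was large enough for a test of single outlying libraries, and the T47D values had intervals that include 0.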

How the results depend on the processing

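The direction of the called members LAMA1, LAMA2, LAMA3 and LAMB3 in MDA-MB-231 held under all 14 alternatives run. Counts of called members moved under few. With the 2-fold threshold inside the test, 0 members were called for the peptide in MDA-MB-231 and 0 for the interaction. The interaction gave 2 with the set of RPKM totals as a term (added after seeing the data) and 1 to 2 with 1 library left out. In T47D, 0 to 1 members passed at any fold with 1 library left out. With at least 10 counts in every library, which leaves 6 members tested, 3 were called between the lines and 4 passed at any fold. The shares of all genes under that filter are not given here. With the replicate block, 3 members were called in MDA-MB-231, where it drops GFOGER replicate 3: LAMB3 at 0.98 and LAMA2 at -0.71 lost the call, LAMA5 at -1.08 gained it and LAMC1 at 0.21 passed at any fold. Blocked counts in the other comparisons stayed within 1.5 times. DESeq2, no filter and all 4 conditions in one fit also called 3. In MDA-MB-231 the RPKM term only drops IKVAV replicate 1, the sole library there from the set of lower totals. It put LAMA4 at 1.14, the value without that library.

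Small changes turned sign, and the cause was not tested. Log2 values with 1 library left out ran in MDA-MB-231 from -0.47 to 1.14 for LAMA4 and from -0.013 to 0.0095 for LAMB1, in T47D from -0.19 to 0.046 for LAMA5, from -0.072 to 0.026 for LAMB2 and from -0.036 to 0.15 for LAMC1, between the lines from -0.034 to 0.088 for LAMA5, and for the interaction from -0.39 to 1.23 for LAMA4. LAMB1 in MDA-MB-231 was 0.0080 with no filter and 0.0027 with all 4 conditions in one fit. In T47D all GFOGER libraries and IKVAV replicate 3 share the set of lower RPKM totals. The RPKM term therefore compares GFOGER with that IKVAV library alone. It gave 0.14 for LAMA5, 0.057 for LAMB1, 0.016 for LAMB2 and 0.0066 for LAMB3 in T47D, and -0.055 for LAMB1 in the interaction. LAMA5 between the lines was 0.02 and became -0.063 with upper-quartile factors, -0.057 with library size alone, -0.052 with the RPKM term and -0.41 with GFOGER alone, and LAMB2 became 0.15 with IKVAV alone. Depth limited LAMA1, LAMA2 and LAMA4, which T47D libraries held at 0 to 10 counts.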
